A study of Homo sapiens with 5 samples.

Results

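Crotonylation of histone H3 at lysine 9 (H3K9cr) was compared with the binding sites of Flag-tagged wild type ENL in HepG2 cells, a human liver cancer line, over all 11394 ENL peaks and 3852 H3K9cr peaks on the 24 standard chromosomes. These 15246 peaks are part of 61337 in the 5 CUT&Tag peak lists of the study, which also profiled Flag-ENL carrying the Y78A substitution, H3K9ac (acetylation) and H3K9bhb (β-hydroxybutyrylation). In CUT&Tag an antibody recruits a transposase that cuts and tags nearby DNA, and a peak is a stretch where tagged fragments pile up above their surroundings. The ENL library came from cells that stably express the tagged protein, so it shows the tagged copy and not endogenous ENL. The sources used here do not give the number of clones, or whether the H3K9cr library came from the same cells. No treatment or time is given for either group. Each group was 1 library, so no difference has a replicate check and no test was run. The intervals given are 95% intervals for counting error (Wilson for a share, Newcombe for a difference), and they do not cover variation between cultures. Peaks of 1 list share a library.

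ENL, the product of MLLT1, is a subunit of the super elongation complex and related assemblies that help RNA polymerase II leave the promoter. Its YEATS domain holds an acylated lysine in an aromatic pocket, and YEATS domains as a family bind crotonyl-lysine well. Histone crotonylation is written by acyltransferases such as p300 from crotonyl-CoA, is removed by HDAC and sirtuin enzymes, and is known from the starts of active genes. The Y78A substitution takes a tyrosine out of that pocket.

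Peaks were placed by their summit. A gene-end peak had its summit within 1 kb of either end of one of 20033 protein-coding genes, an inside-gene peak lay elsewhere within a gene, and a far peak lay over 100 kb from any such gene. The rest lay between genes. A peak was shared when at least 1 bp of it was covered by a peak of the other list. The lists were not cut alike: the smallest deposited −log10 q was 2.05 for ENL and 1.34 for H3K9cr. The median summit held 23 fragments in ENL peaks and 22 in H3K9cr peaks, and the most frequent background level was 1.60 times as high in the H3K9cr list. ENL peaks covered 4.99 Mb and H3K9cr peaks 1.39 Mb. Chromatin showed liver genes in part: APOA1, APOB, HNF4A, FOXA1, FOXA2 and CEBPA had an ENL peak at a gene end, while gene ends of ALB, AFP, TTR and FGB lacked peaks in all 5 lists.

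Gene-end sequences are shown first for genes on which the comparison turns, as the 200 bases before the annotated start (RefSeq, GRCh38.p14, the assembly also called hg38). SKA2 (a kinetochore protein), ICE1 (part of the little elongation complex) and HADHB (a subunit of the mitochondrial trifunctional protein) have a peak of both lists there. ARL6IP1 (a membrane-shaping protein of the endoplasmic reticulum) and GORASP2 (a Golgi stacking protein) have strong ENL peaks and no H3K9cr peak. Capitals mark CCAAT and GGGCGG on either strand (ATTGG and CCGCCC are the reverse complements).
SKA2 (chr17:59155187-59155386, minus strand): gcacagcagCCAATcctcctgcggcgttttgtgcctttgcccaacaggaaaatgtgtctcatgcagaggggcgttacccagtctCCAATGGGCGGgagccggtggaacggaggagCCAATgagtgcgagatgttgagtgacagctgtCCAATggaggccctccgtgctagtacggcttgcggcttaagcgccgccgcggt
ICE1 (chr5:5422477-5422676, plus strand): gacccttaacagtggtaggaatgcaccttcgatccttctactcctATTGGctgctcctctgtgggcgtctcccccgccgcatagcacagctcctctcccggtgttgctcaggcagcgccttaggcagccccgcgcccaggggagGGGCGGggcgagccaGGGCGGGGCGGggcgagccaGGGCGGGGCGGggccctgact
HADHB (chr2:26244739-26244938, plus strand): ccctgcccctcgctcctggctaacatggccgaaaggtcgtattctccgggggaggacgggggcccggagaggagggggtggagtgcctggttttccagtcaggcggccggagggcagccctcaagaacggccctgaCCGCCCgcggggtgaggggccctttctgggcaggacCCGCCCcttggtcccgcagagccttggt
ARL6IP1 (chr16:18801550-18801749, minus strand): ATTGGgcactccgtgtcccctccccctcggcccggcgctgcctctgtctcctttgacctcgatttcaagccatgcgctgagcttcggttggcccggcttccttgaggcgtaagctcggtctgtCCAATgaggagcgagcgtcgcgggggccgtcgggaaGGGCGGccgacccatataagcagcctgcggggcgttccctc
GORASP2 (chr2:170929053-170929252, plus strand): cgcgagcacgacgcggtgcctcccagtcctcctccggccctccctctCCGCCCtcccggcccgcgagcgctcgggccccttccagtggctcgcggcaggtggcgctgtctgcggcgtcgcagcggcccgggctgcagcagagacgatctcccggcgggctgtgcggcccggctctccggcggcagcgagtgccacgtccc

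These 5 upstream stretches are rich in G and C, with 60.5% at SKA2, 70% at ICE1, 70.5% at HADHB, 66.5% at ARL6IP1 and 78% at GORASP2. CCAAT is the box bound by NF-Y, and GGGCGG is the GC box bound by the SP family. The printed stretches of SKA2, ICE1 and ARL6IP1 hold both motifs, whereas those of HADHB and GORASP2 hold only GGGCGG. Neither motif is in the stretch before another annotated ARL6IP1 start (chr16:18801371-18801570) or before HADHA, which has a peak of both lists. Both motifs thus occurred at gene ends with H3K9cr and without it.

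Another pair shows repeated DNA at gene ends with an H3K9cr peak. That peak covers all of the printed SPATC1L run and only a part of the LOC105378947 run. SPATC1L (a protein best known from the sperm head and tail junction) had a strong peak in both lists, and LOC105378947, an uncharacterised gene model, had an H3K9cr peak and no ENL peak. Capitals here mark the first copy of the repeated unit.
SPATC1L (chr21:46184460-46184659, minus strand): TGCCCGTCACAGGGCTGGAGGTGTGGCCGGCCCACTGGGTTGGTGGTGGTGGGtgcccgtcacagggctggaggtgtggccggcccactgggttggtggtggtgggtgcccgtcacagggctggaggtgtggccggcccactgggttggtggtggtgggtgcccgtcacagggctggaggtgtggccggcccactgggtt
LOC105378947 (chr1:611298-611497, minus strand): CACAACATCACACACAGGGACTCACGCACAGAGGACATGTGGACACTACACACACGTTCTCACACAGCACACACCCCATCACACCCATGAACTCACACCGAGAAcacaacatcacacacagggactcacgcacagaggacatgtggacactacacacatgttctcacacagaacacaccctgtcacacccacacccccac

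Self-matches were computed over the whole promoter window of 300 bases, of which 200 are printed. The SPATC1L window repeats every 53 bases, and at that shift 86.2% of the compared bases of the whole window matched. At LOC105378947 the best shift was 104 bases, with 70.9% of the whole window's compared bases matching, and the H3K9cr peak covered the left-hand end of the printed run. A self-match of 70% or more at a shift of 10 to 150 bases was rare in all sets. It was found in 2 of 677 promoter windows with both peaks and 1 of 27 with H3K9cr alone, against 2 of 4738 with ENL alone and 38 of all 22077 windows (0.172%).

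The overlap of the lists depended on the direction and on position. Of the ENL peaks, 2173 were overlapped by H3K9cr (19.1%, interval 18.4 to 19.8), and of the H3K9cr peaks, 2185 were overlapped by ENL (56.7%, interval 55.2 to 58.3). These made 2199 overlapping pairs at 2159 places. Left over were 9221 ENL-only peaks and 1667 H3K9cr-only peaks.

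At gene ends nearly every H3K9cr peak lay on an ENL peak, while most ENL peaks had no H3K9cr. There, 661 of 737 H3K9cr peaks were shared (89.7%, interval 87.3 to 91.7), and 654 of 4899 ENL peaks (13.3%, interval 12.4 to 14.3). Inside genes, 583 of 1217 H3K9cr peaks were shared (47.9%, interval 45.1 to 50.7) and 586 of 3169 ENL peaks (18.5%, interval 17.2 to 19.9). Far from genes both directions came close to each other, with 483 of 997 H3K9cr peaks (48.4%, interval 45.4 to 51.5) and 478 of 1022 ENL peaks (46.8%, interval 43.7 to 49.8). Between genes the shares were 50.8% for H3K9cr and 19.7% for ENL.

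**Figure D1:**
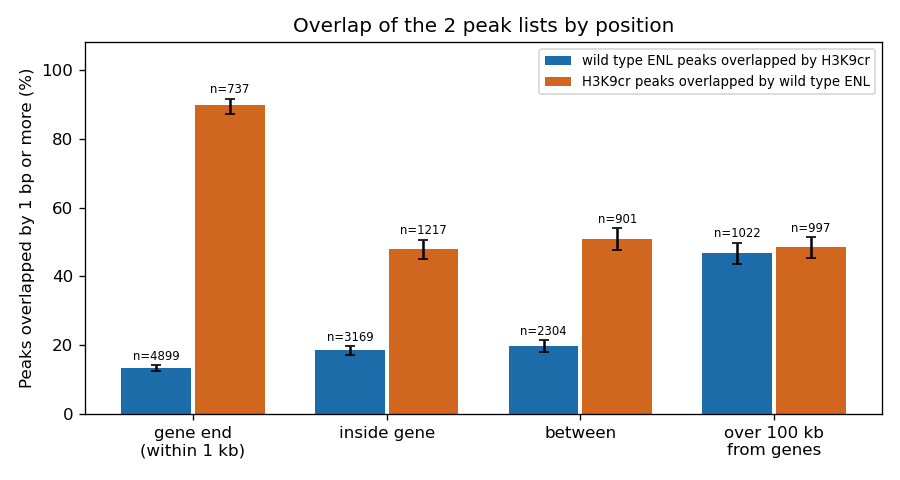
Share of peaks (%, y axis) overlapped by the other list at 4 positions (x axis), for wild type ENL peaks (blue) and H3K9cr peaks (orange); bars are 1 library each, error bars are 95% Wilson intervals and n is the number of peaks. The H3K9cr bar stands highest at gene ends, at 89.7%, where the ENL bar is lowest, at 13.3%, and both stand near 47% to 48% far from genes.

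The H3K9cr share at gene ends exceeded that inside genes by 41.8 points (interval 38.1 to 45.2) and that far from genes by 41.2 points (interval 37.3 to 44.9). Inside genes and far from genes the H3K9cr shares differed by -0.54 points, with an interval of -4.72 to 3.64 that includes 0. For ENL the order was turned round: the gene-end share was below the far share, with a difference of -33.4 points (interval -36.6 to -30.2). That order is tied to the number of H3K9cr peaks at each position and was not tested apart from it. List length moved these values. With both lists cut to their 3852 strongest peaks, 27.4% of ENL and 70.3% of H3K9cr gene-end peaks were shared, 33.0% and 23.7% inside genes, and 62.7% and 29.4% far from genes. With −log10 q of at least 5 in both lists, the ENL shares were 5.61% at gene ends and 10.8% inside genes.

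Shared and unshared peaks therefore lay in different places. Gene ends held 46.0% of ENL-only peaks (interval 45.0 to 47.1), 30.1% of shared ENL peaks (interval 28.2 to 32.1) and 4.56% of H3K9cr-only peaks (interval 3.66 to 5.67). Far positions held 5.90% of ENL-only peaks, 22.0% of shared ENL peaks and 30.8% of H3K9cr-only peaks. Inside genes lay 28.0%, 26.97% and 38.03%.

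Peak strength, by the authors' −log10 p within each list, also went with sharing. ENL gene-end peaks with a −log10 p under 8 were shared in 2.99% of cases, those from 8 to 12 in 4.25%, from 12 to 20 in 15.1% and of 20 or more in 41.0%. Far ENL peaks in the same 4 bands were shared in 18.1%, 35.2%, 47.9% and 76.1%. In each band the far ENL share was thus above the gene-end share. H3K9cr gene-end peaks were shared in 85.6%, 93.6%, 95.3% and 100%, the last over 11 peaks with a lower bound of 74.1%. For far H3K9cr peaks the shares were 26.97%, 27.8%, 52.1% and 97.9%, so nearly all of the strongest H3K9cr peaks lay on ENL peaks at either position.

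**Figure D2:**
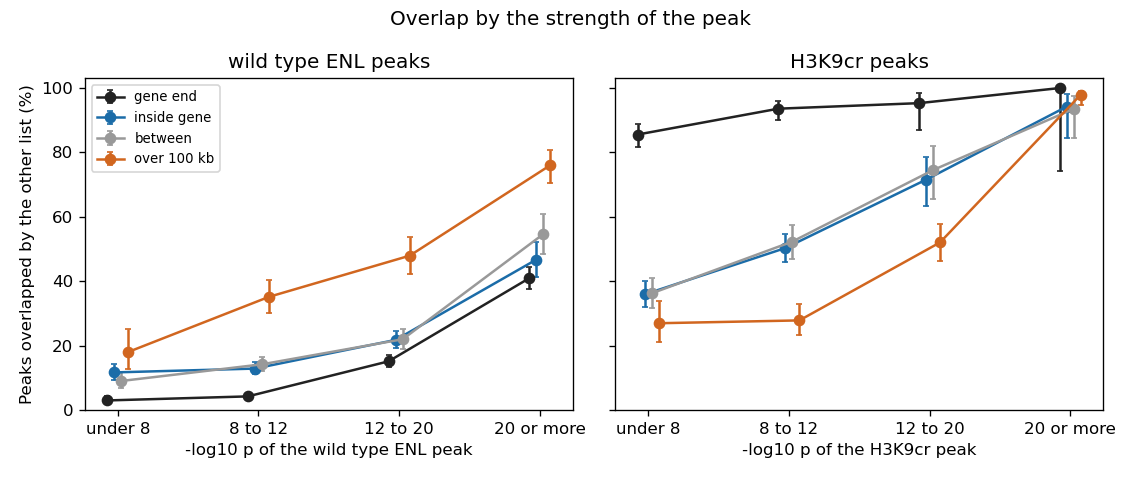
Share of peaks overlapped by the other list (%, y axis) in 4 bands of the authors' −log10 p (x axis), for wild type ENL peaks (left) and H3K9cr peaks (right); lines join the 4 bands of a position, and error bars are 95% Wilson intervals. Gene-end ENL peaks go from 2.99% to 41.0%, whereas gene-end H3K9cr peaks start at 85.6% in the weakest band.

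Summits of overlapping peaks lay close together. Over the 2199 pairs the median distance was 58 bp (quartiles 22 and 132 bp), and 66.8% were within 100 bp. Far pairs had a median of 28 bp with 80.7% within 100 bp (interval 77.0 to 84.0), and gene-end pairs 76 bp with 60.7% (interval 56.9 to 64.3). The shapes differed too: at gene ends 69.0% of the paired H3K9cr peaks lay wholly within the ENL peak, and far from genes 18.5%. Shared gene-end ENL peaks had a median width of 641 bp against 417 bp for ENL-only ones. Across pairs, Spearman's rho between the −log10 p values was 0.37 at 661 gene-end pairs and 0.64 at 487 far pairs, as a description of peaks that share libraries and local background.

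**Figure D3:**
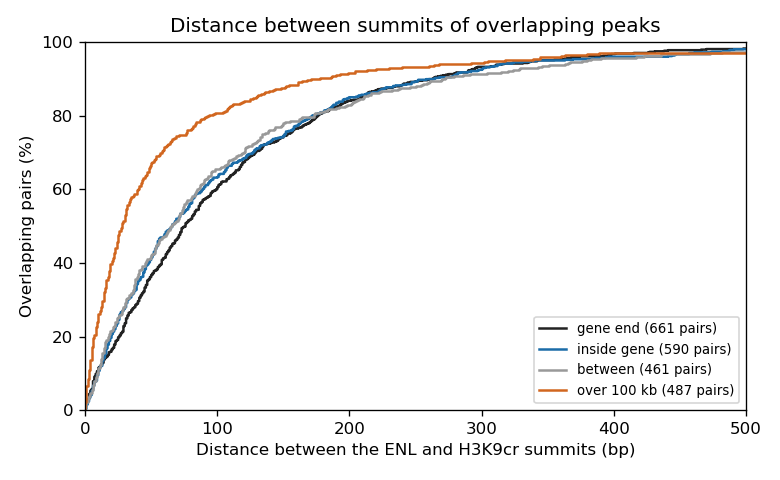
Share of overlapping pairs (%, y axis) whose ENL and H3K9cr summits lie within a distance (bp, x axis, shown to 500 bp), with 1 step line for each position. The far line rises fastest and has 80.7% of its pairs within 100 bp, against 60.7% at gene ends.

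At the level of genes, 5569 of 20033 protein-coding genes (27.8%) had an ENL peak at a gene end and 872 (4.35%) an H3K9cr peak. Both marked 800 genes (3.99%), ENL alone 4769 (23.8%) and H3K9cr alone 72 (0.359%). With both lists cut to equal length, 623 genes had both, 1658 ENL alone and 249 H3K9cr alone, and windows of 2500 bp gave 124 with H3K9cr alone. Of the H3K9cr genes in the lists as deposited, 91.7% had ENL (interval 89.7 to 93.4), and of the ENL genes 14.4% had H3K9cr (interval 13.5 to 15.3). For 9 of the 72 genes with H3K9cr alone the strongest H3K9cr peak was in fact overlapped by an ENL peak whose summit fell outside the window. With the strand taken from the promoter table, 82.8% of shared H3K9cr gene-end peaks lay only at 5′ ends and 1.51% only at 3′ ends (interval 0.824 to 2.76). Of the 76 H3K9cr-only gene-end peaks, 55.3% lay only at 5′ ends and 21.1% (16 peaks, interval 13.4 to 31.5) only at 3′ ends. These shares count peaks at genes of unknown strand in the total. Such peaks made up 22.4% of the H3K9cr-only ones (17 peaks) and 13.8% of the shared ones.

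The strongest shared gene-end peak lay at the start of chromosome 3, at the gene model LOC124905351 (hg38, 10064 to 10880 in ENL). ENL reached 15.9-fold there over 135 summit fragments and H3K9cr 14.5-fold over 116. Both summits were at base 10481, and both peaks ranked in the top 10 of their list. SPATC1L followed the repeat shown above: its ENL peak (chromosome 21, 46184411 to 46184821) was 14.6-fold with 67 fragments, and its H3K9cr peak was 8.58-fold with 44. The paralogous lysine methyltransferase genes FAM86B1 and EEF2KMT (also called FAM86A) both carried the pair, at 8.95- and 7.01-fold for ENL and 7.08- and 4.56-fold for H3K9cr. Reads from such near-identical copies can be placed at either gene.

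The other leading shared gene ends were at SKA2 and PRR11, FARP2, IMPA2 and CCDC200. SKA2, a kinetochore protein, and PRR11, a cell cycle protein, are divergent neighbours that shared 1 peak on chromosome 17 (59154810 to 59155723). It was 10.1-fold in ENL with 63 fragments and 5.47-fold in H3K9cr with 40, and the summits lay at bases 59155456 and 59155450. FARP2, a guanine nucleotide exchange factor, had 6.69-fold ENL with 92 fragments and 5.09-fold H3K9cr with 73. IMPA2, an inositol monophosphatase, had 8.65- and 5.33-fold, and CCDC200 had 4.96- and 4.62-fold. All 8 of these leading shared peaks were also overlapped by H3K9ac, H3K9bhb and Y78A peaks.

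Some ENL gene ends without H3K9cr were as strong as many shared ones. At the median they were weaker, with a −log10 p of 11.1 for ENL-only and 19.4 for shared gene-end ENL peaks. ARL6IP1 (chromosome 16, 18801151 to 18802053) had 10.4-fold ENL over 77 fragments. HNRNPA3, an RNA-binding protein, had 6.36-fold over 110, and RNF43, a ubiquitin ligase that lowers Wnt receptors, had 9.35-fold over 76. The −log10 p of these ENL peaks was 54.6, 52.3 and 50.1, above the 44.8 at SKA2. All were below LOC124905351 (116.6), SPATC1L (59.6) and FAM86B1 (58.2) among the shared gene ends. GORASP2 had 9.01-fold, ZNFX1, an antiviral RNA helicase, 4.56-fold over 137 fragments, and the TGFBR2 start, shared with LOC105377015, 6.27-fold. All 6 were on H3K9ac, H3K9bhb and Y78A peaks as well.

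H3K9cr-only gene-end peaks were somewhat weaker than shared ones, with a median −log10 p of 7.20 against 8.03. The strongest was at the 3′ end of C2CD4C on chromosome 19 (404630 to 404959), 4.62-fold with 32 fragments, and the next at the 3′ end of ZDHHC11, a palmitoyltransferase, 5.29-fold with 23. Neither had an H3K9bhb or Y78A peak. LOC105378947 (4.43-fold), LOC107987288 (3.99-fold) and LOC124904951 (3.52-fold) are gene models of unknown function. GARS1, the glycyl-tRNA synthetase gene, was the one well-known gene start among the 6, at 5.33-fold over 16 fragments, and it was on H3K9ac and H3K9bhb peaks. As background to the 1 kb limit, 60.6% of 33 H3K9cr peaks with summits 800 to 1000 bp from a gene end were shared, and 51.9% of 27 peaks over 1000 and up to 1200 bp away.

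Genes of the acylation pathway and of ENL's own complexes were counted next, against 27.8% of all protein-coding genes with ENL and 4.35% with H3K9cr. None of the 12 acyl-lysine reader genes had H3K9cr at a gene end, and 6 had ENL alone, led by the bromodomain genes BRD2 (4.301-fold over 50 fragments) and TAF1 (6.78-fold over 23). MLLT1 itself had neither. At the 4.35% share of all genes, a list of 12 without H3K9cr is no result about its members. Of 10 acyltransferase genes, 6 had ENL and 1 had both. That gene was KAT6A, a lysine acetyltransferase of the MYST family, with 6.97-fold ENL over 28 fragments and 3.89-fold H3K9cr over 15. EP300, which encodes p300, had 8.68-fold ENL over 51 fragments and no H3K9cr. Of 10 deacylase genes, 5 had ENL and 1, SIRT5, a mitochondrial deacylase of acidic acyl groups, had both (5.76- and 4.00-fold).

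Of 36 elongation complex genes, 66.7% had ENL and 16.7% H3K9cr, beside 27.8% and 4.35% of all genes. They held the most shared members of the 10 lists, 6 of 36, with ENL at 24. ICE1 had the strongest H3K9cr peak of them, 6.01-fold over 26 fragments beside 9.17-fold ENL over 32, and no Y78A peak. CCNT2, a cyclin of P-TEFb, had 7.70-fold ENL and 4.67-fold H3K9cr. ELL, an elongation factor of the super elongation complex, had 6.17- and 3.93-fold, and AFF4, the scaffold of that complex, had 5.47- and 4.71-fold. ELL2 (5.64- and 3.61-fold) and MLLT10 (7.29- and 3.25-fold), a cofactor of the methyltransferase DOT1L, completed the 6. The −log10 p at AFF4 was 10.6 in the ENL list and 11.8 in the H3K9cr list. Such values cannot be ranked between libraries of unknown read totals. HEXIM1, an inhibitor of P-TEFb (5.07-fold), and MEPCE, the capping enzyme of the 7SK RNA (5.41-fold), had ENL and no H3K9cr.

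Of 16 crotonyl-CoA and ketone body genes, 6 had ENL (37.5%, beside 27.8% of all genes) and 2 had H3K9cr (12.5%, beside 4.35%). Both were HADHA and HADHB, which share 1 divergent start on chromosome 2 and 1 peak pair there (26244533 to 26245213 in ENL and 26244720 to 26244940 in H3K9cr). ENL was 6.94-fold over 40 fragments and H3K9cr 3.57-fold over 26. ACADM (6.68-fold), an acyl-CoA dehydrogenase, and GCDH (5.90-fold), which forms crotonyl-CoA from glutaryl-CoA, had ENL alone.

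Cell cycle genes had ENL at 22 of 40 (55%) and H3K9cr at 5 (12.5%), beside 27.8% and 4.35% of all genes. PCNA, the sliding clamp of DNA replication, had 6.26-fold ENL and 3.14-fold H3K9cr, CDC25A, a phosphatase that activates cyclin-dependent kinases, 5.87- and 3.40-fold, and WEE1, the kinase that opposes it, 5.47- and 2.77-fold. CDK2 counted as H3K9cr alone, but its H3K9cr peak (chromosome 12, 55973611 to 55974386) was overlapped by a 7.80-fold ENL peak. That summit lay 1154 bp from the end of CDK2 and 6 bp from an end of RAB5B. BUB1, a spindle checkpoint kinase, had a 4.42-fold H3K9cr peak over 13 fragments with no ENL peak on it.

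Liver gene lists are read beside the same shares of all genes, 27.8% with ENL and 4.35% with H3K9cr. At the latter share a list of this size without H3K9cr is no result about its members. Of 26 liver transcription factor genes, 13 had ENL and none H3K9cr, with TBX3 at 8.07-fold and NR0B2, the bile acid-induced repressor SHP, at 4.50-fold over 119 fragments. Of 30 genes of secreted liver proteins, 9 (30% of the list, near the share of all genes) had ENL and none H3K9cr, with APOB, the core protein of very low density lipoprotein, at 4.61-fold and F5 (coagulation factor V) at 8.17-fold. Counting a peak anywhere in the gene gave H3K9cr at 4 of the 26 and 2 of the 30, and at 3 of 30 genes of other tissues. The share of all genes by that count is not given here, so these counts are no result about liver genes. Ribosomal protein genes had ENL at 56 of 83 (67.5%) and H3K9cr at 2 (2.41%), namely RPL7 (6.42- and 3.66-fold) and RPS15A (4.78- and 2.68-fold). Genes of other tissues had ENL at 1 of 30, PECAM1, and H3K9cr at none.

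Promoter windows of 300 bases, from 250 before to 50 after a start, were searched for 7 motifs on both strands, with overlapping matches allowed. Both lists overlapped 677 windows and ENL alone 4738, out of 22077. TATAAA was in 2.66% of windows with both (interval 1.69 to 4.16), 4.52% with ENL alone and 9.499% of all windows. CCAAT was in 49.9% with both (interval 46.2 to 53.7), 42.9% with ENL alone (interval 41.5 to 44.3) and 34.7% of all. GGGCGG was in 83.6%, 77.4% and 56.3%. CGGAAG, the core letters bound by ETS factors, ran the other way between the first 2 sets, with 33.8% (interval 30.4 to 37.5) and 38.8% (interval 37.4 to 40.2), and was in 23.7% of all. GCGCATGC was in 7.53%, 6.75% and 3.71%, TGACGTCA in 3.69%, 3.42% and 2.25%, and a longer motif known from ZNF143 sites in 1.18%, 0.696% and 0.308%. Median G and C content was 66.3% in both sets, against 62.3% over all windows.

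Inside genes and between genes, shared and H3K9cr-only peaks lay near chromosome ends more often than ENL-only peaks. Of inside-gene peaks, 17.9% of the shared ENL peaks (interval 15.0 to 21.2) and 21.5% of the H3K9cr-only peaks (interval 18.4 to 24.8) had their summit within 2 Mb of the chromosome's first base or of the last gene annotated on it. For ENL-only peaks it was 6.93% (interval 6.01 to 7.97). Between genes the shares were 17.8% for shared ENL peaks, 18.3% for H3K9cr-only peaks and 6.81% for ENL-only peaks. At gene ends they were 4.43% for shared ENL peaks, 6.95% for ENL-only peaks and 18.4% for H3K9cr-only peaks (14 of 76, interval 11.3 to 28.6). Genes with the most H3K9cr-only peaks were CDH4, a cadherin, with 6, and PTPRN2, a receptor-type phosphatase of secretory granules, with 4. TTC34 had 6 shared peaks. ENL-only peaks were most frequent in FNDC3B, with 11, and in HLF, a PAR bZIP transcription factor, and SPTBN1, a spectrin, with 10 each.

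The strongest shared inside-gene peak was in SERINC2 on chromosome 1 (31431678 to 31432220 in ENL). ENL was 15.0-fold over 173 fragments and H3K9cr 9.70-fold over 183, at ranks 3 and 4 of their lists. DUX4, a homeobox gene that lies in a repeat array at the end of chromosome 4, had 6.71-fold ENL and 7.05-fold H3K9cr, and TMEM242 had 7.83- and 6.20-fold. At the first bases of chromosome 1, in the gene model LOC124905564, ENL was 17.6-fold and H3K9cr 13.4-fold, and in LOC102724250 they were 4.98- and 4.35-fold. All 5 were on H3K9ac, H3K9bhb and Y78A peaks. Reads from repeated sequence such as the DUX4 array can be placed at any copy.

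ENL-only peaks inside genes were led by CHD2, a chromatin remodeller (6.14-fold over 102 fragments), SEC31A, a coat protein of secretory vesicles (6.82-fold over 80), and MORF4L2, a subunit of histone acetyltransferase complexes (8.83-fold over 62). CHKA, choline kinase, had 7.73-fold ENL on a Y78A peak with neither H3K9ac nor H3K9bhb, and ZNF444 had 8.10-fold. Among H3K9cr-only peaks the strongest was in TLCD5 on chromosome 11 (120328610 to 120329082), 7.87-fold over 46 fragments. Next were RTEL1, a helicase that maintains telomeres (3.89-fold over 75 fragments), and GTPBP6, which lies in a pseudoautosomal region (5.60-fold over 43). PFKP, the platelet-type phosphofructokinase, had 5.42-fold over 43, and CYRIA, a regulator of actin assembly, 7.83-fold over 23. All 5 of these H3K9cr-only peaks lay on H3K9ac and 4 on H3K9bhb, the exception being RTEL1, while TLCD5 alone was on a Y78A peak.

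Far from genes the peaks of both lists gathered in a few places. Joining far peaks with gaps of at most 1 Mb gave 305 clusters, and 17 of them held at least 20 peaks. These 17 lay on 14 chromosomes, spanned 42.2 Mb and held 50.2% of the far ENL peaks and 66.1% of the far H3K9cr peaks. The largest were on chromosome 10 from 38.4 to 42.1 Mb (66 ENL and 88 H3K9cr peaks), chromosome 5 from 47.3 to 49.7 Mb (53 and 94), chromosome 1 from 121.6 to 125.2 Mb (39 and 92) and chromosome 19 from 24.9 to 27.8 Mb (34 and 80). Each of these 4 stretches includes or adjoins the centromere, where satellite repeats are found. Mapping filters are not given, so how reads from repeats were placed there is unknown. No list of regions prone to artefact signal was applied here, so peaks in such regions were kept. The ENL share was 66.7% in the 17 clusters (interval 62.5 to 70.6) and 26.7% elsewhere (interval 23.1 to 30.7). For H3K9cr it was 52.5% (interval 48.7 to 56.3) and 40.5% (interval 35.4 to 45.8). The peaks elsewhere still include smaller clusters, of under 20 peaks, and whether these lie in repeats was not tested.

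**Figure D4:**
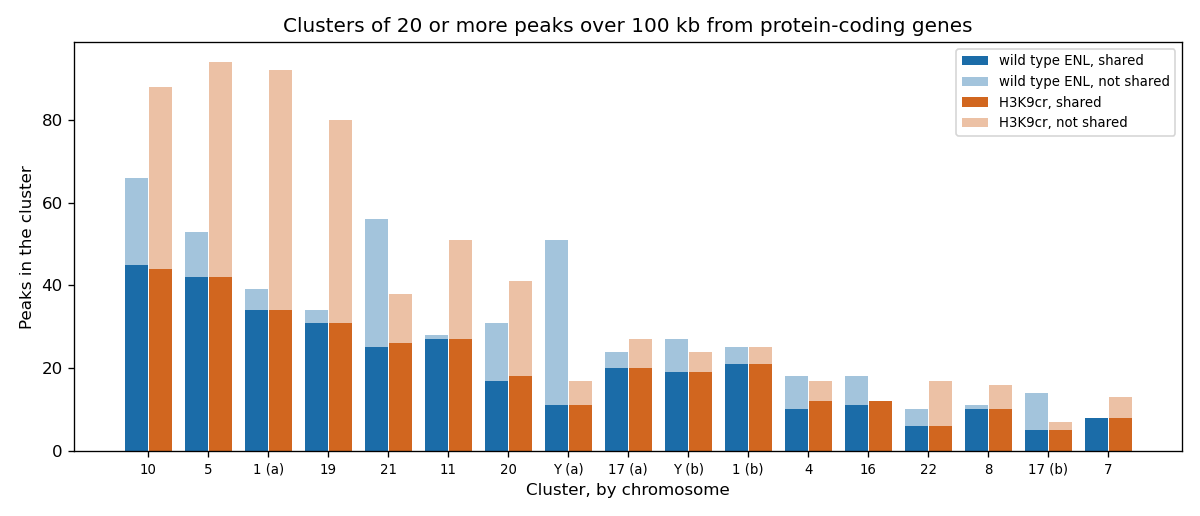
Number of far peaks (y axis) in each of the 17 clusters of 20 or more (x axis, by chromosome, with a and b for a pair on 1 chromosome), for wild type ENL (blue) and H3K9cr (orange), with shared peaks in full colour and unshared peaks pale above them. H3K9cr outnumbers ENL on chromosomes 10, 5, 19 and 11, and ENL outnumbers H3K9cr on chromosome 21 and in the first Y cluster, where 40 of 51 ENL peaks were not shared.

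The clusters differed in balance. On chromosome 19, 31 of 34 ENL peaks were shared, and on chromosome 11, 27 of 28. On chromosome 21 only 25 of 56 ENL peaks were shared, and in the Y cluster from 10.6 to 11.7 Mb 11 of 51. Genes in the pseudoautosomal regions are listed on X alone in the table used, so Y peaks there count as far from genes.

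The strongest peak of both lists was the same far place, on chromosome 3 (93470293 to 93470865), 402470 bp from PROS1. It was in a cluster of 3 far peaks, outside the 17 large clusters. Whether repeats lie under it was not tested. ENL was 27.4-fold over 290 fragments and H3K9cr 24.96-fold over 292. On chromosome 17 (25920049 to 25920425) both held 93 fragments, at 28.6- and 28.1-fold, with summits at bases 25920230 and 25920232. At the end of the long arm of Y (57216479 to 57217319) the folds were 15.8 and 15.0. All 3 places were on H3K9ac, H3K9bhb and Y78A peaks too. The strongest far ENL-only peaks were on chromosome 10 (41889327 to 41889702, 6.22-fold over 139 fragments) and chromosome 16 (34085142 to 34085453, 18.8-fold over 49, and 34063612 to 34064371, 7.16-fold over 96). The strongest far H3K9cr-only peaks held 28 and 27 fragments on chromosome 15 (19374797 to 19375117 and 19681121 to 19681440) and 28 on chromosome 19 (25316699 to 25317020). Read totals are unknown, so these counts cannot be ranked against those of the ENL library.

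Far ENL-only peaks lay in or near lncRNA genes more often than the other far peaks. The summit fell inside a lncRNA gene or within 1 kb of it for 32.2% of them (interval 28.4 to 36.2). For shared ENL peaks it was 9.83% (interval 7.48 to 12.8) and for H3K9cr-only peaks 8.56% (interval 6.44 to 11.3). Distance to the lncRNA gene ends was not measured. The 3 kinds also differed in how many lay in the 17 large clusters. These held 31.4% of far ENL-only, 71.5% of far shared ENL and 60.9% of far H3K9cr-only peaks. The lncRNA shares were not split by cluster, so a preference for lncRNA genes cannot be told apart from that difference. As background to the 100 kb limit, 26.5% of 117 ENL peaks 80 to 100 kb from a gene were shared, and 22.6% of 93 peaks 100 to 120 kb away. The H3K9cr share changed more across the limit. It was 69.4% of 49 peaks (interval 55.5 to 80.5) on the near side and 41.3% of 46 (interval 28.3 to 55.7) on the far side.

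Shared peaks also lay on the other 3 lists more often than unshared peaks at each position. At gene ends, shared ENL peaks were overlapped by H3K9ac in 99.7%, H3K9bhb in 96.2% and Y78A in 81.3% of cases. ENL-only gene-end peaks were overlapped in 93.8%, 62.6% and 41.1%. The differences were 5.87 points for H3K9ac (interval 4.81 to 6.66), 33.6 for H3K9bhb (interval 31.3 to 35.5) and 40.2 for Y78A (interval 36.7 to 43.4). The 76 H3K9cr-only gene-end peaks were on H3K9ac in 75%, on H3K9bhb in 32.9% and on Y78A in 6.58%.

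**Figure D5:**
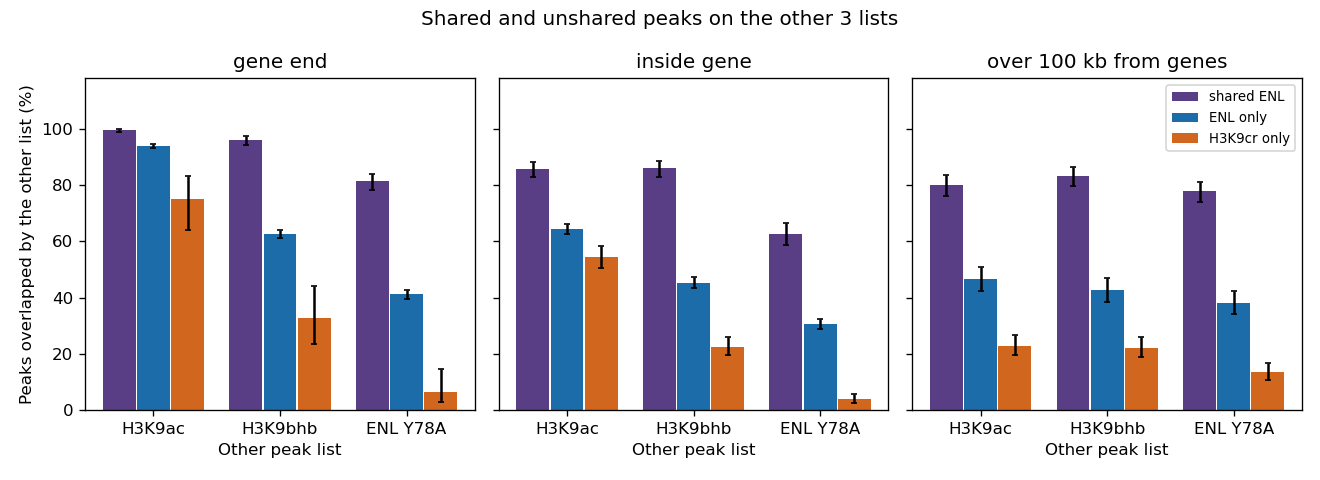
Share of shared ENL peaks (purple), ENL-only peaks (blue) and H3K9cr-only peaks (orange) overlapped by the H3K9ac, H3K9bhb and Y78A lists (%, y axis) at gene ends, inside genes and far from genes; error bars are 95% Wilson intervals. Shared peaks are highest in each group, and Y78A peaks lie on 3.94% of the H3K9cr-only peaks inside genes.

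Strength moved with this comparison. Among ENL peaks with a −log10 p of 20 or more, 98.9% of shared and 94.9% of ENL-only peaks were on Y78A, and 99.4% and 88.7% on H3K9bhb. Among those from 12 to 20 the values were 77.5% and 60.3% on Y78A, and 93.5% and 72.7% on H3K9bhb. Among those under 8 the values were 20.4% and 7.56% on Y78A, and 61.7% and 28.7% on H3K9bhb. In the strongest band nearly all peaks of both kinds were on Y78A, which leaves little room for a gap. H3K9cr-only peaks were on the other 3 lists less often than shared ones. Of the 1667, 45.4% were on H3K9ac and 45.2% were on none of the 3 (interval 42.8 to 47.6). Far from genes 57.8% were on none (interval 53.5 to 62.0). They were also weaker, with a median −log10 p of 8.17 against 9.33 for shared H3K9cr peaks. Shared H3K9cr peaks were on none of the 3 in 3.34%. The H3K9ac list is the longest of the 5 and had the lowest threshold, which raises its share of any other list.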

How the data were processed

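Each of 5 CUT&Tag libraries of HepG2 cells has 1 deposited peak list, and the sample titles gave the groups. Per the submitters' processing notes, hg38 was the build, and Bowtie2, FastQC, deepTools and MACS2 were used, with no versions or roles stated. Call settings, any control, duplicate and mapping filters and read totals were not given in the sources used. The authors' fold is a ratio of summit signal to local background, and it was compared only within a list. Both p and q were deposited as −log10 values. The score column deposited by the authors was not used. The deposited interval positions and summit offsets are in base pairs.

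Peaks on the 24 standard chromosomes were kept (11394 of 12033 ENL and 3852 of 4148 H3K9cr lines). Whole summit fragments were recovered from fold and −log10 p for 99.99% of ENL and 100% of H3K9cr peaks (relative tolerance 3e-05). A longer or looser list overlaps more, and a transposase also favours open chromatin. Genes came from RefSeq on GRCh38.p14, with strand for 15842 of 20033, and exons and introns were not used here. Strength bands (8, 12 and 20 in −log10 p) and alternatives are described beside the results.

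Named peaks followed a rule on the authors' −log10 p rank: 8 shared gene-end peaks with the lowest sum of ranks and 6 of each unshared kind, 5 of each kind inside genes, 3 of each kind far away, and up to 4 members with H3K9cr and 2 with ENL alone of each of 10 gene lists, skipping readthrough genes. MLLT1, ELL2, MLLT10, 1 of the 5 cell cycle genes, PECAM1 and the genes with most inside peaks were named after their values were seen. The members and lists were chosen with earlier results of these data known. Tested on 11394 simulated peaks, the overlap step returned 100% of those planted. On the real lists it differed from bedtools 2.31.1 by 0 peaks, and fragment recovery was right for 98.9% of 1981 simulated peaks. Python 3.11.15, numpy 2.4.6, scipy 1.17.1 and pandas 2.3.3 were used.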

Additional observations from a re-analysis of the deposited data

Results flagged for a closer look

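Peaks outside the 24 standard chromosomes were used in no comparison of the report, and the lists overlapped there as well. Of 639 wild type ENL peaks on 154 such contigs, 195 were overlapped by H3K9cr (30.5%, interval 27.1 to 34.2), above the 19.1% on the standard chromosomes. Of 296 H3K9cr peaks on 117 contigs, 194 were overlapped by ENL (65.5%, interval 60.0 to 70.7), against 56.7%.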

How the results depend on the processing

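No paired analysis was possible because each group had 1 library and no test was run. Raising both lists to the same smallest −log10 q, or leaving out chromosome Y (a choice made after seeing the data), moved no share beyond its interval. Values that left the interval of the reported share, or moved a gene count by over 1.5 times, were as follows. A cover of 50% of the shorter peak gave H3K9cr shares of 55.0% in all and 87.1% at gene ends, and put 73.1% of ENL-only peaks on H3K9ac and 51.7% on H3K9bhb. Counting a peak as shared when its summit lay in the other list's peak gave ENL 16.9% in all, 11.2% at gene ends and 16.2% inside genes, and H3K9cr 53.5%, 85.6% and 44.7%. Lists of equal length gave ENL 34.3% in all, 27.4% at gene ends, 33.0% inside genes and 62.7% far away, and H3K9cr 34.7%, 70.3%, 23.7% and 29.4%. They put 48.4%, 22.5% and 11.97% of ENL peaks at gene ends, inside genes and far away, and left 1658 genes with ENL alone and 249 with H3K9cr alone. A −log10 q of at least 5 gave ENL 12.2% in all, 5.61% at gene ends and 10.8% inside genes, and H3K9cr 60.7%, 93.0%, 55.5% and 53.5% far away. It put 44.4% of ENL peaks at gene ends and 26.7% inside genes, and 13.2%, 25.9% and 39.9% of H3K9cr peaks at gene ends, inside genes and far away. On H3K9ac it left 84.7% of shared and 67.4% of unshared ENL peaks and 84.8% and 36.2% of H3K9cr peaks, on Y78A 79.1% and 37.3%, and 79.3% and 10.5%, and on H3K9bhb 28.2% of H3K9cr-only peaks. Windows of 500 bp gave 93.5% of H3K9cr gene-end peaks shared, with 37.8% and 31.3% of ENL and 15.9% and 33.7% of H3K9cr peaks at gene ends and inside genes. Windows of 2500 bp gave 82.8%, with 48.8% and 24.2%, and 23.4% and 28.8%, and 124 genes with H3K9cr alone. Over 50 kb from genes, 40.2% of ENL peaks were shared. In settings chosen after seeing the data, 5′ ends alone gave 92.9% for H3K9cr, and far peaks outside the 17 clusters gave 26.7% for ENL and 40.5% for H3K9cr. In each setting run, H3K9cr peaks were shared more often at gene ends than far away, and ENL peaks more often far away than at gene ends. Causes of these moves were not tested beyond the fewer peaks that the cuts leave. Read totals are unknown, so what depth limits could not be measured; the median summit held 23 fragments in ENL and 22 in H3K9cr peaks.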
